A study of Mus musculus with 8 samples.

Results

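Nuclei with the profile of striatal D1 projection neurons were picked out of single nuclei RNA sequencing (snRNA-seq) of the cortex of 4 Wt and 4 Ifnar1-/- mice and compared between the genotypes. A nucleus was called D1 when it held at least 5 unique molecular identifiers (UMIs, tags that let each captured RNA molecule be counted once) of Pde10a, at least 1 of Rgs9, at least 1 of the dopamine receptor gene Drd1, 0 of Drd2, 0 of Adora2a and at most 1 of Slc17a7. The nuclei were thus selected on the measured counts of these genes, and the levels of these 6 genes are given below as a description with no test. The rule found 550 D1 nuclei among 54343 nuclei kept in the series. A mirrored rule, with 0 UMIs of Drd1 and at least 1 of Drd2 or Adora2a, found 316 D2 nuclei, which served as the closest comparison. All mice carried the strain label C57BL6J, were 6 weeks old and naive, and each genotype had 2 females and 2 males. The groups thus differed by label only in Ifnar1, which was intact in Wt mice and knocked out in the line of Ifnar1-/- mice as a whole, not in 1 cell type. Each library was made from 1 cortex sample, and the library was the replicate.

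Striatal projection neurons are GABA-releasing cells that make up most of the striatum and receive dopamine from the midbrain and glutamate from cortex and thalamus. Those of the direct pathway carry the D1 receptor, which raises cyclic AMP through the olfactory-type G protein and adenylyl cyclase 5, and release substance P and dynorphin, the products of Tac1 and Pdyn. Those of the indirect pathway carry the D2 receptor and the adenosine A2a receptor and release enkephalin, the product of Penk. IFNAR1 is a subunit of the receptor for type-I interferons, which signals through JAK and STAT proteins to interferon response genes.

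The promoters of Drd1 and Tac1, genes that set the D1 nuclei apart, are shown because cyclic AMP is known to act on transcription through the cyclic AMP response element. RefSeq (GRCm38.p6) gives a window of 250 bases before a transcription start, of which the bases before the outermost GENCODE start of the gene are printed, 5′ to 3′. GENCODE places that start inside the window, so that 47 bases of the Drd1 window and 182 of the Tac1 window lie within the annotated gene and are left out. Capitals mark TGACG, a short core of that element, or its reverse complement CGTCA. The Drd1 piece lies on the minus strand at chr13:54055706-54055908, before the outer of 2 RefSeq starts, and the Tac1 piece on the plus strand at chr6:7554811-7554878.
Drd1: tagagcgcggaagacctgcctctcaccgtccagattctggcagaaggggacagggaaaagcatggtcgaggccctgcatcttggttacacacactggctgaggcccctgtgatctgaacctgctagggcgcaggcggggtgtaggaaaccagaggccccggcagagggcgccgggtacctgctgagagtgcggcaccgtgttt
Tac1: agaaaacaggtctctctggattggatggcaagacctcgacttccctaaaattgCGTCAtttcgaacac
The printed Tac1 piece held 1 match and the Drd1 piece 0. Over the whole windows Tac1 held 2, at positions -197 and -43 from its RefSeq start, the latter inside the gene by GENCODE, and Drd1 held 0. A match on either strand was found in 17.8% of 32851 mouse windows of 250 bases, so the letters describe these windows and show no binding.

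The libraries held 44063346 to 58423423 UMIs each, and 4396 to 9573 nuclei per library were kept. The D1 nuclei had a median of 6795.5 UMIs and the D2 nuclei of 6563.5. Summed over the D1 nuclei of a library, 343087 to 738033 UMIs were available for each mouse. Any pair of libraries shared 3 to 29 cell barcodes. Among the D1 nuclei, 33 were called doublets by Scrublet, and 67 held markers of another cell class, among them at least 5 UMIs of Sst or 1 of Lhx6, genes of interneurons. Values without them are given where they moved a result.

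Summed per library, the D1 nuclei carried striatal genes that the rule did not read, although 117 of them lay in clusters, described below, that went against the label. Levels are CPM, UMI counts scaled to a common library total, of the nuclei summed within a library and scaled by TMM, given as the mean ± SD of the 8 libraries. Rarb, a retinoic acid receptor of striatal neurons, stood at 897 ± 195 CPM in D1 nuclei and at 26.7 CPM in the summed glutamatergic nuclei of the same libraries. Ppp1r1b, which encodes the dopamine-regulated phosphatase inhibitor DARPP-32, was at 49.5 ± 10.3 against 5.91 CPM. The genes of GABA synthesis Gad1 (119 ± 32.6 CPM) and Gad2 (221 ± 31.0 CPM) were present, against 9.63 and 7.42 CPM in glutamatergic nuclei. The rule's limit on Slc17a7 bears on this contrast, which does not tell projection neurons from other GABA neurons. Other GABA neurons were not compared here.

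Of the genes in the rule, Pde10a (a phosphodiesterase of striatal neurons) was counted at a median of 13 UMIs per D1 nucleus, Rgs9 (a regulator of G protein signalling) at 3 and Drd1 at 1. The call on Drd1 was therefore shallow, since 302 of the 550 nuclei carried 1 Drd1 UMI. Tac1, which the rule did not read, gave a check from outside it. Nuclei with 1 Drd1 UMI held 596 CPM of Tac1. The 1562 nuclei that met the other criteria but had no UMI of Drd1, Drd2 or Adora2a held 158 CPM. Rarb stood at 831 CPM in the former and at 180 CPM in the latter. The other criteria alone thus took in many nuclei with low levels of these striatal genes. Nuclei with 5 UMIs of Pde10a held 596 CPM of Tac1 and those with 4, just outside, 588 CPM. The 147 nuclei with 1 UMI of Rgs9 held 389 CPM of Tac1 and the 505 with 0, just outside, held 141 CPM. Nuclei with 1 UMI of Slc17a7 held 413 CPM of Tac1 and those with 2 UMIs, just outside, 264 CPM. The 22 nuclei with UMIs of both Drd1 and either Drd2 or Adora2a, which belong to neither kind, held 372 CPM.

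Drd1 (ENSMUSG00000021478, GRCm38 chromosome 13, 54051183 to 54055705, minus strand) stood at 178, 185, 255 and 223 CPM in the D1 nuclei of Wt F1, F2, M1 and M2 and at 290, 184, 226 and 214 CPM in those of Ifnar1-/- F1, F2, M1 and M2. Pde10a ranged from 1713 to 2569 CPM and Rgs9 from 349 to 704 CPM over the libraries, both highest in Ifnar1-/- F1, and the ranges of the genotypes overlapped for all 3 genes. Tac1 (ENSMUSG00000061762, chromosome 6, 7554879 to 7565834, plus strand) was at 533, 664, 697 and 820 CPM in Wt F1, F2, M1 and M2 and at 528, 663, 762 and 474 CPM in Ifnar1-/- F1, F2, M1 and M2. Tac1 was detected in 453 of 550 D1 nuclei (82.4%, exact 95% interval 78.9% to 85.5%, counting error only), in 16.1% of D2 nuclei and in 3.78% of oligodendrocyte nuclei, which should lack it and had a median of 2192 UMIs. Nuclei of at least 3000 UMIs were then thinned to 3000, which kept 541 D1, 315 D2 and 1378 of 6267 oligodendrocyte nuclei. Among these the shares were 70.2% in D1, 11.4% in D2 and 5.08% in oligodendrocyte nuclei. The oligodendrocyte nuclei left were the deeper ones, so 5.08% and 3.78% come from different sets.

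Few genes were seen to separate D1 from D2 nuclei in every library. The D2 sums were small, from 20 nuclei and 152253 UMIs in Wt M2 to 85 nuclei and 481932 UMIs in Wt M1. Genes of low counts could therefore miss the demand for all 8 libraries. Of 3924 genes at 50 CPM or more in either kind, 23 (0.586%) had a mean at least 2-fold higher in D1 nuclei and were higher there in all 8 libraries, and 16 (0.408%) had a mean at least 2-fold lower and were lower in all 8. Within a library the ratio could be smaller. These counts describe nuclei that the rule separated, and no test was made of them. With the nuclei that carried markers of other classes left out of both kinds, 35 genes were higher by this measure and 21 lower.

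**Figure D1:**
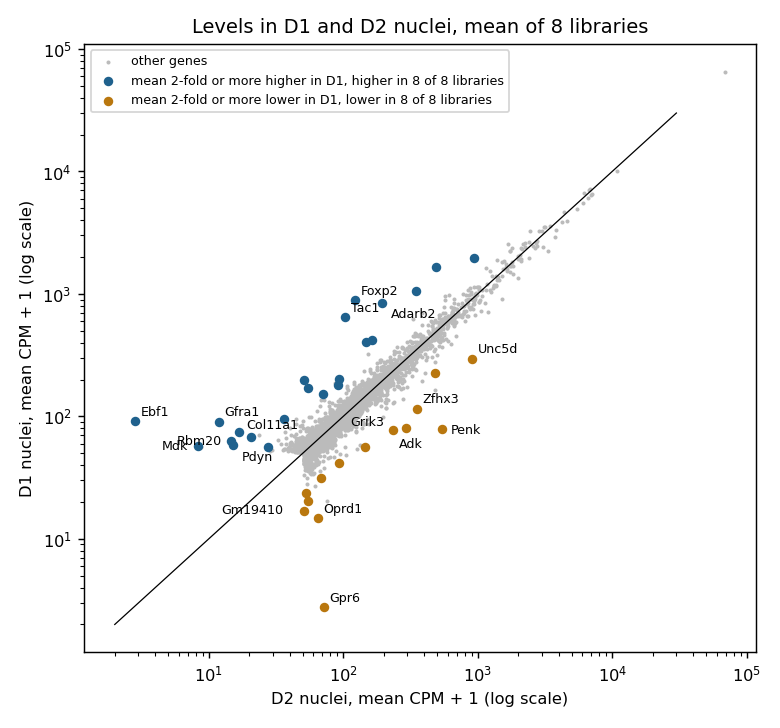
Mean CPM plus 1 of each gene in D1 nuclei (vertical, log scale) against D2 nuclei (horizontal, log scale) over 8 libraries, for the genes at 50 CPM or more in either kind, without Drd1, Drd2 and Adora2a, which the rule set to 0 in one kind. Blue points had a mean at least 2-fold higher and orange points one at least 2-fold lower in D1 nuclei, with that direction but not that size in all 8 libraries, and most genes lie along the line of equal levels.

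Among genes that the rule did not read, Ebf1, a transcription factor of direct pathway neurons, had the highest ratio. It stood at 81.7, 86.6, 73.8 and 45.1 CPM in the D1 nuclei of Wt F1, F2, M1 and M2 and at 172, 142, 55.9 and 68.1 CPM in those of Ifnar1-/- F1, F2, M1 and M2, while no library exceeded 6.13 CPM in D2 nuclei, from 6 UMIs in all. The ratio of the means was 49.1. The libraries thus did not overlap between the kinds, and among the D1 sums Ebf1 was highest in Ifnar1-/- F1 and lowest in Wt M2.

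Foxp2, a forkhead transcription factor, was 7.31 times as high in D1 nuclei (891 ± 161 CPM) as in D2 nuclei (122 ± 65.0 CPM). Tac1 was 6.26 times as high (643 ± 121 against 103 ± 66.8 CPM) and Pdyn, the dynorphin precursor gene, 4.12 times (57.8 ± 10.0 against 14.0 ± 19.1 CPM). Isl1, a LIM homeodomain factor of direct pathway neurons, was at 36.6 ± 12.7 CPM in D1 and 2.94 ± 4.80 CPM in D2 nuclei. Gfra1, a co-receptor for the growth factor GDNF, was 8.14 times and Mdk, which encodes the growth factor midkine, 7.63 times as high in D1 nuclei. The splicing factor gene Rbm20 (4.58 times), the collagen gene Col11a1 (4.67 times) and Adarb2, of the RNA editing enzyme family (4.35 times), completed, with Drd1, the 10 genes of highest ratio among those at 50 CPM or more, a limit that Isl1 did not reach. Adarb2 and Pdyn were the least even of these over the D2 sums, where Adarb2 ranged from 19.3 to 599 CPM and Pdyn from 0 to 55.6 CPM.

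On the other side, Gpr6, an orphan receptor of indirect pathway neurons, was 40.6 times as high in D2 nuclei, with 8 UMIs over all D1 nuclei and 173 over all D2 nuclei. Penk was 6.85 times as high in D2 nuclei, at 366 to 1051 CPM against 50.7 to 106 CPM in D1 nuclei, so that the libraries did not overlap. The delta opioid receptor gene Oprd1 was 4.62 times, the adenosine kinase gene Adk 3.66 times and the kainate receptor subunit gene Grik3 3.07 times as high in D2 nuclei. Unc5d, a netrin receptor gene, Zfhx3, a zinc finger homeobox gene, and the transcript Gm19410 were 3.08, 3.07 and 3.16 times as high. Without the nuclei with markers of other classes the log2 D1 to D2 level of Unc5d moved from -1.62 to -2.41 and the log2 D1 to D2 level of Grik3 from -1.60 to -2.39. Drd2 and Adora2a were at 0 in D1 nuclei by the rule.

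**Figure D2:**
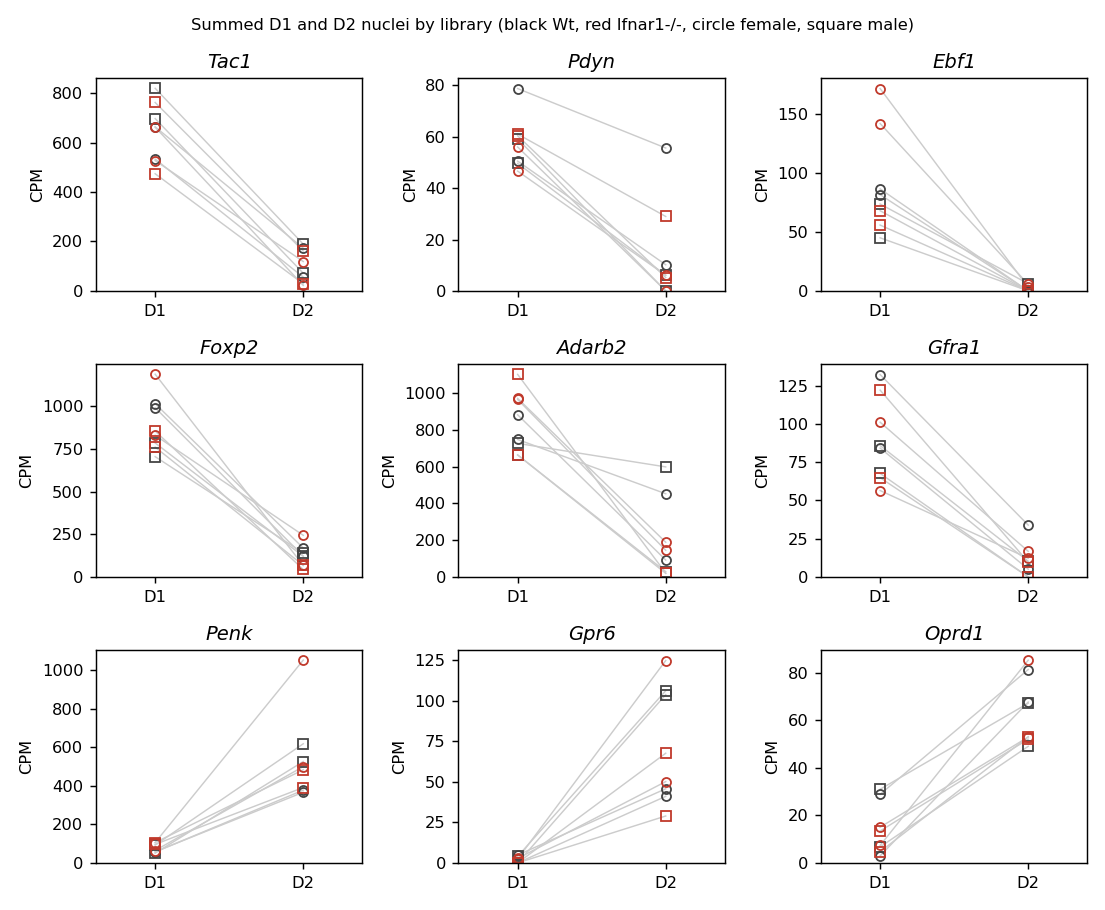
CPM in the summed D1 and D2 nuclei of each library for 6 genes higher in D1 and 3 higher in D2 nuclei, with a line joining the sums of 1 library. Black symbols are Wt and red symbols Ifnar1-/-, circles are females and squares males, and every line runs the same way within a gene.

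The lists of pathway genes followed these roles only in part. All 4 D1 pathway markers at 50 CPM or more were higher in D1 nuclei in all 8 libraries and all 5 D2 pathway markers were lower, beside 115 higher and 78 lower of 3924 genes, but Drd1, Drd2 and Adora2a among them were fixed by the rule. Of 21 genes of projection neuron identity 0 were higher and 1 lower in all libraries, and the median ratio was 1.00. The member that was lower was Foxp1, a forkhead factor, at 600 ± 123 CPM in D1 and 807 CPM in D2 nuclei. Of 5 genes of eccentric projection neurons, a divergent class of D1 neurons, 4 were higher in D1 nuclei in all libraries (Adarb2, Tshz1, Otof and Col11a1), with a median ratio of 2.65. Of 9 striosome genes, which mark patches in the striatum, 4 were higher in all libraries, namely Tac1, Pdyn, the semaphorin gene Sema5b (170 against 54.1 CPM) and Spon1, and of 6 genes of the surrounding matrix none was higher and Epha4 was lower. The dopamine D3 receptor gene Drd3, of the ventral striatum list, was 3.37 times as high in D1 nuclei, at 66.4 ± 19.4 CPM.

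The median ratios of genes for signalling and excitability, which both kinds of neuron use, lay near 1. In the list of dopamine and cyclic AMP signalling the members with the highest CPM in D1 nuclei were Pde10a, Arpp21 (1081 CPM), Pde4b (857 CPM) and Pde4d (643 CPM), and Gnal, the olfactory-type G protein gene, and Adcy5, adenylyl cyclase 5, stood at 639 and 406 CPM in D1 nuclei, with ratios to D2 of 1.03 and 1.04. For glutamate receptors Grm5 (2422 CPM), Grm7 (2392 CPM) and Grik2 (1812 CPM) had the highest CPM in D1 nuclei, and the median ratio to D2 over 21 genes was 0.975. For GABA, Gabrg3 (1848 CPM), Gabrb1 (611 CPM) and Gabra2 (327 CPM) were among the members of highest CPM, with a median ratio of 0.982 over 17 genes. For potassium and sodium channels the members of highest CPM were Kcnd2 (3283 CPM), Kcnq5 (2583 CPM), Kcnq3 (785 CPM) and Kcnab1 (723 CPM), with a median ratio of 0.952 over 20 genes. In the list of receptors for opioids, acetylcholine and cannabinoids, which also holds the cell adhesion gene Opcml and the lipase gene Mgll, Opcml (1942 CPM), Chrm3 (277 CPM), Mgll (91.6 CPM) and Oprm1 (89.7 CPM) had the highest CPM, and the muscarinic receptor gene Chrm3 was lower in D1 than in D2 nuclei in all 8 libraries (277 against 478 CPM). The median ratio over all 3924 genes was 0.992.

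The D1 nuclei were not of 1 kind. Clustering on 1500 variable genes gave 9 clusters of 5 to 107 nuclei, which are described by their leading genes and carry no test. Cluster 1 (107 nuclei) was led by Adam12, Prex2 and Cartpt, cluster 2 (103 nuclei) by CT010465.1, Penk and Tshz1 with Adarb2 and Casz1 among its 10 leading genes, cluster 3 (82 nuclei) by Ebf1, Dach1 and Gli3, cluster 4 (79 nuclei) by Cxcl14, Fign and Gm28928, and cluster 6 (54 nuclei) by Syt10, Pde1c and Myo3b with Pdyn and Calb1 also among them. In these 5 clusters 84.5% to 98.7% of nuclei held Tac1. They differed in identity genes, since Meis2, a homeodomain factor of projection neurons, stood at 1089 to 2349 CPM in clusters 1, 2, 3 and 6 and at 96.4 CPM in cluster 4. Penk, although an indirect pathway gene, was held by 68.9% of the nuclei of cluster 2 at 316 CPM, beside 306.7 CPM of Drd1 there. Cluster 8 had 8 nuclei, led by Folh1, with 2652 CPM of Tac1, 536 CPM of Drd3, 282 CPM of Rarb and 0 UMIs of Meis2.

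The remaining 3 clusters, with 117 nuclei, went against the label. Cluster 5 (76 nuclei, median 10143 UMIs) was led by Sst, Npy and Kcnmb2, with Nos1 and Sox6, genes of somatostatin interneurons, among its 10 leading genes. It held 3590 CPM of Sst, and Sst was at 25.8 to 35.3 CPM in every other cluster but 9. Cluster 7 (36 nuclei, median 10643 UMIs) had C1ql3, AC129186.1 and Rorb, the last a gene of cortical glutamatergic neurons, among its 10 leading genes. Cluster 9 was 5 nuclei led by oligodendrocyte genes such as Aspa and Mog, all 5 called doublets. Scrublet also called 16 nuclei of cluster 5 and 11 of cluster 7 doublets. In cluster 5 Sst was held by 55.3% of nuclei and Npy by 43.4%, but Rarb by 60.5% and Tac1 by 44.7%. Whether cluster 5 mixed interneurons with projection neurons was not tested. Rarb was at 274 CPM in cluster 5 and 208 CPM in cluster 7, against 886 to 1560 CPM in clusters 1, 2, 3, 4 and 6. Markers of another class were held by 33, 26 and 5 nuclei of clusters 5, 7 and 9 and by 3 nuclei of the other clusters. Cluster 5 had nuclei of all 8 libraries, cluster 7 of all but Ifnar1-/- F2 and cluster 9 of 3. Leaving them out left 433 D1 nuclei.

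**Figure D3:**
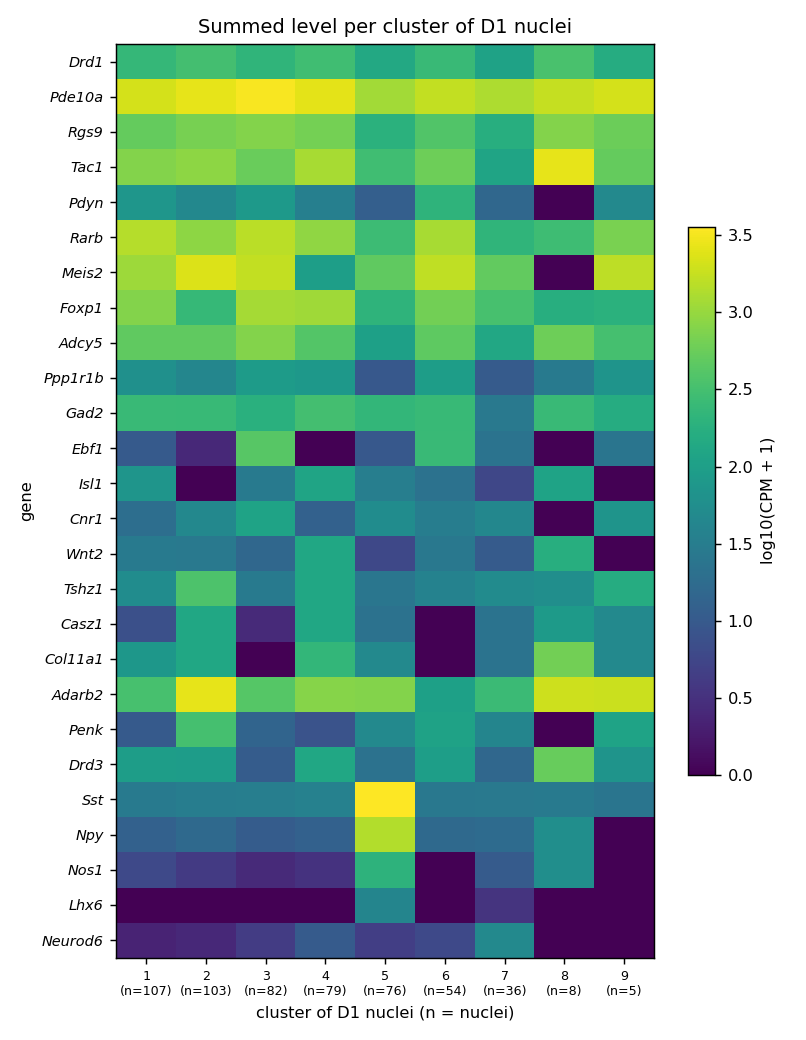
Log10 of CPM plus 1 for genes of projection neurons and other classes (vertical) in each of the 9 clusters of D1 nuclei (horizontal, n gives the nuclei). Sst, Npy and Nos1 stand out in cluster 5 and Neurod6 in cluster 7, while Meis2 is low in clusters 4 and 8.

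The share of D1 nuclei did not differ detectably between the genotypes. The authors dissected cortex apart from basal ganglia, and how much striatum each cortex sample took in is not given. The share is therefore of the nuclei sampled and no measure of abundance in the mouse. Their numbers were 67, 51, 114 and 45 in Wt F1, F2, M1 and M2 and 84, 75, 61 and 53 in Ifnar1-/- F1, F2, M1 and M2. As a share of the nuclei kept this was 1.22%, 0.854%, 1.19% and 0.703% in Wt and 0.972%, 1.71%, 0.822% and 0.820% in Ifnar1-/-. The means ± SD of 4 libraries were 0.993% ± 0.256 for Wt and 1.08% ± 0.423 for Ifnar1-/-, a difference of 0.0869 points (exact permutation test over libraries, two-sided, p = 0.8, where the smallest p that 4 against 4 allow is 0.0286). Ifnar1-/- F2 lay highest and the genotypes overlapped. Without the nuclei with markers of other classes the difference was 0.0841 points (exact permutation p = 0.8). Without Ifnar1-/- F2 the difference was -0.122 points and without Wt M2 it was -0.00966. D1 nuclei accounted for 64.6% ± 5.39 of D1 plus D2 nuclei in the 4 Wt libraries and for 66.8% ± 8.62 in the 4 Ifnar1-/- libraries (SD, exact permutation p = 0.657). The lowest share, 54.2%, was in Ifnar1-/- F1, whose D1 nuclei were the shallowest, with a median of 4999.5 UMIs. With nuclei of at least 3000 UMIs thinned to 3000 and called anew, the shares were 57.3% and 60.2% (exact permutation p = 0.571).

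**Figure D4:**
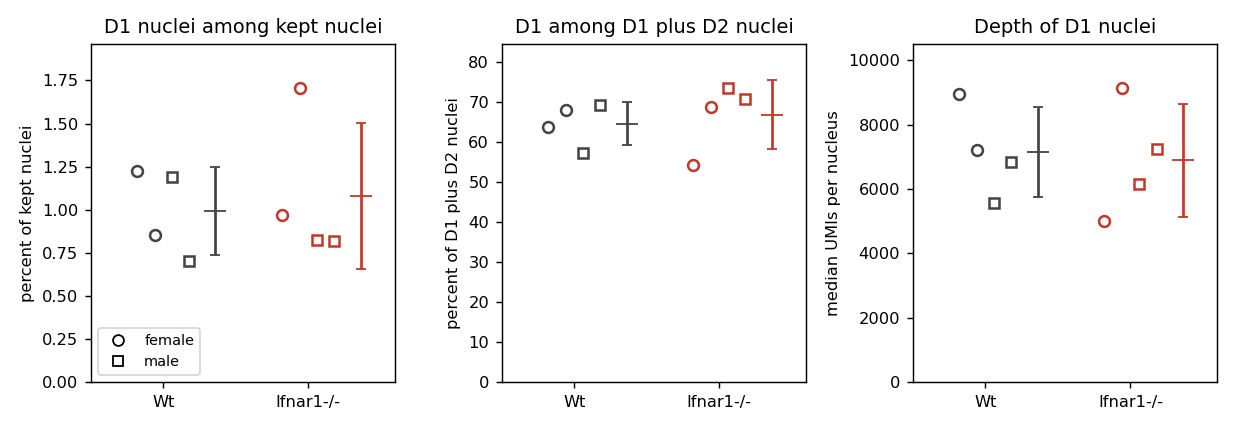
For each library, the percent of kept nuclei that were D1, the percent of D1 plus D2 nuclei that were D1, and the median UMIs of a D1 nucleus. Circles are females and squares males, bars give the mean ± SD of 4 libraries, and Wt and Ifnar1-/- overlap in all 3 panels.

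Ifnar1 itself (ENSMUSG00000022967, chromosome 16, 91485238 to 91507441) was near the limit of detection in D1 nuclei. It had 11, 7, 8 and 3 UMIs in Wt F1, F2, M1 and M2 and 6, 8, 5 and 8 in Ifnar1-/- F1, F2, M1 and M2, that is 29 and 27 UMIs in all, too few to enter the test. A UMI counted for a gene may come from any stretch of its RNA, so these numbers are no check of the deletion. The partner subunit gene Ifnar2 had 25 UMIs in Wt and 12 in Ifnar1-/-. Of 40 interferon response genes 39 were in the files, 34 had a UMI in D1 nuclei, 11 had at least 10, and together they had 393 UMIs in Wt and 395 in Ifnar1-/-. Their summed level was 182 ± 10.7 CPM for Wt against 200 ± 29.5 CPM for Ifnar1-/- (SD, n = 4 each). The 1 member tested was Adar, the RNA editing enzyme gene, with a log2 fold change (Ifnar1-/- over Wt) of 0.17 (standard error 0.15, edgeR adjusted p = 0.999). Of 20 interferon receptor and signal genes 6 were tested and 0 passed, among them Irf2 (-0.19), Ptpn11 (0.01), Jak2 (0.26) and Jak1 (0.05 on the log2 scale).

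Across all genes, 0 of 6663 tested in D1 nuclei (0%) passed an adjusted p of 0.05 between the genotypes in edgeR's quasi-likelihood test, and 159 (2.39%) had an unadjusted p under 0.05, 74 higher and 85 lower in Ifnar1-/-. Leaving out Ifnar1-/- M1 alone raised the latter count to 355 of 6942 genes (183 higher and 172 lower), and with sex as a covariate it was 289. DESeq2 called 3 genes, with 68 at an unadjusted p under 0.05, and edgeR with sex as a covariate called the same 3, all higher in Ifnar1-/-: Gm43713, Gon4l and Gm26848. With the replicate numbers as a block edgeR called 1, Gm43713. Of the genes tested, 140 (2.1%) had CPM that did not overlap between the genotypes.

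Gm43713 (ENSMUSG00000106218, an antisense transcript on chromosome 3, 88845025 to 88900001, minus strand) had the smallest p. It stood at 92.1, 86.6, 38.9 and 62.0 CPM in Wt F1, F2, M1 and M2 and at 238, 193, 233 and 185 CPM in Ifnar1-/- F1, F2, M1 and M2. The log2 fold change was 1.61 (standard error 0.23, edgeR adjusted p = 0.0738, replicate block 0.0129), and no library of the genotypes overlapped. It lies within Gon4l (ENSMUSG00000054199, chromosome 3, 88835231 to 88910103, plus strand), a nuclear protein gene, which stood at 78.7, 79.4, 96.6 and 98.6 CPM in Wt and at 216, 182, 212 and 134 CPM in Ifnar1-/- in the same order of libraries (log2 fold change 1.07, standard error 0.18, edgeR adjusted p = 0.189). The genes overlap over 54977 bases, and unless the counting used strand their reads cannot be told apart. Gm26848, a long intergenic RNA on chromosome 17 (6314199 to 6493180), stood at 1188 to 1595 CPM in Wt and 2008 to 2353 CPM in Ifnar1-/- (log2 fold change 0.71, standard error 0.13, edgeR adjusted p = 0.247). Gon4l and Gm43713 had been put on a list of genes that differed by genotype in other cell classes of these mice, which was made from these libraries, so their direction here is no independent evidence. The same holds for Gm15965.

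The other 7 genes of smallest unadjusted p did not pass either, with an edgeR adjusted p of 0.999 each, and also did not overlap between the genotypes. All were chosen by p in these same libraries, so the lack of overlap adds no evidence. Ap2b1, a subunit of the clathrin adaptor AP-2, stood at 224 ± 25.6 CPM for Wt against 144 ± 9.26 CPM for Ifnar1-/- (SD, n = 4 each). Fam19a1, which encodes a secreted chemokine-like protein, stood at 224 ± 65.3 and 82.7 ± 41.9 CPM. It was among the 10 leading genes of cluster 7, where it was at 942 CPM against 63.2 CPM in the rest. Its log2 fold change was -1.43 (standard error 0.34) and became -1.03 without the nuclei called doublets and -1.19 without those with markers of other classes, and without clusters 5, 7 and 9 it was too low to be tested. Gm15965, an antisense transcript on chromosome 16 (90983907 to 90987237) that ends 498.0 kb before Ifnar1, stood at 43.1 ± 16.1 CPM in Wt and 16.3 ± 4.81 in Ifnar1-/-. Sdk2, a cell adhesion gene, stood at 85.4 ± 22.5 and 48.4 ± 1.76 CPM, and its log2 fold change of -0.79 became -0.43 without the nuclei with markers of other classes and -0.23 without clusters 5, 7 and 9 (edgeR unadjusted p = 0.115 and 0.477). Gad1, glutamate decarboxylase, was at 107, 77.0, 80.5 and 110 CPM in Wt F1, F2, M1 and M2 and at 125, 138, 174 and 141 CPM in Ifnar1-/- F1, F2, M1 and M2 (log2 fold change 0.63, standard error 0.18). Without those nuclei the log2 fold change of Gad1 was 0.43 and without those clusters 0.26 (edgeR unadjusted p = 0.0311 and 0.157). Hacd1, an enzyme of long fatty acid synthesis, stood at 32.8 ± 9.36 and 61.3 ± 10.7 CPM. Ghitm, a protein of the inner mitochondrial membrane, stood at 14.7 ± 4.27 and 31.4 ± 6.41 CPM. Ghitm and Gm15965 were too low to be tested without the nuclei with markers of other classes and without clusters 5, 7 and 9. Ghitm was also too low without the nuclei called doublets.

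**Figure D5:**
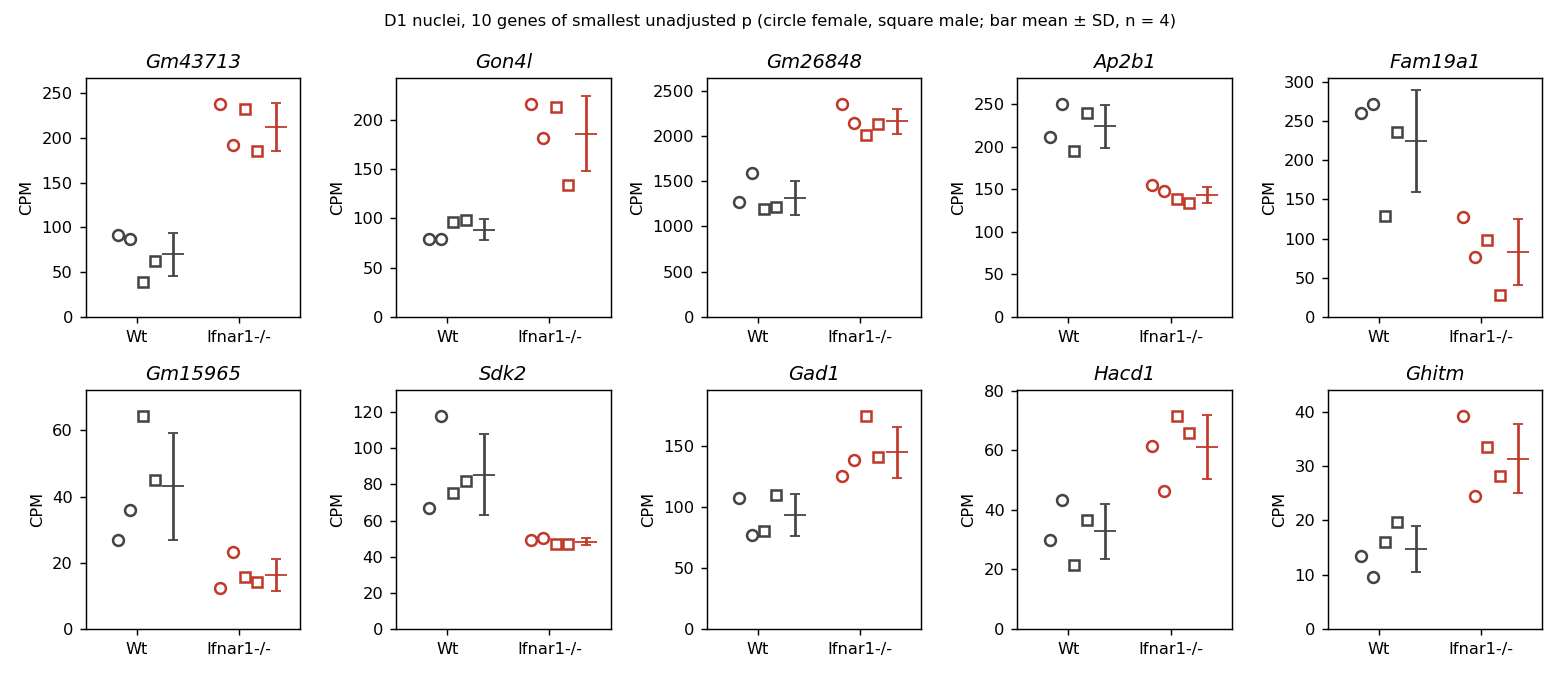
CPM in the summed D1 nuclei of each library for the 10 genes of smallest unadjusted p between genotypes. Circles are females and squares males, bars give the mean ± SD of 4 libraries, and none passed the adjusted threshold in edgeR's test. The genotypes do not overlap in any panel, as in 140 (2.1%) of all 6663 genes tested. This adds no evidence, since the genes were chosen by p in these same libraries.

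No list of striatal genes had a member past the adjusted threshold. The genes that the rule read were left out of the counts and medians of the lists, and ranges are those on leaving out 1 library. Of 7 D1 pathway markers tested 4 had a positive and 3 a negative log2 fold change, the median being 0.13 (range 0.05 to 0.35) beside 0.01 over all 6663 genes. Tac1 had a log2 fold change of -0.16 (standard error 0.18), Pdyn of -0.09 (0.22), Ebf1 of 0.60 (0.32) and Isl1 of 0.45 (0.30). Of D2 pathway markers 2 were tested, 1 higher and 1 lower, and Penk had a log2 fold change of 0.47 (0.24). Of 21 genes of projection neuron identity 18 were above and 3 below 0, and the median was 0.16 (range 0.07 to 0.24) and 0.06 without clusters 5, 7 and 9. Of 23 genes of dopamine and cyclic AMP signalling 16 were above and 7 below 0, with a median of 0.14 (range 0.08 to 0.20), and the phosphodiesterase gene Pde4b had the smallest p among them (log2 fold change 0.32, standard error 0.14, edgeR unadjusted p = 0.0392). The median was -0.06 for 10 striosome genes (range -0.13 to -0.003), 0.10 for 7 matrix genes (range 0.05 to 0.21) and -0.11 for 5 ventral striatum genes (range -0.32 to -0.05). For 6 eccentric projection neuron genes it was 0.19, but -0.02 without Ifnar1-/- F2 and 0.06, with 3 genes above and 3 below 0, without clusters 5, 7 and 9. The striosome gene Khdrbs3, an RNA-binding protein gene, had a log2 fold change of -0.40 (edgeR unadjusted p = 0.0258) and the matrix gene Epha4, an ephrin receptor gene, of 0.38 (0.0497).

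Neuropeptide genes (7 tested, median -0.09), receptors for opioids, acetylcholine and cannabinoids (11 tested, median -0.004), glutamate receptors (21 tested, median 0.02), GABA genes (18 tested, median 0.01) and channels (23 tested, median 0.04) had medians of either sign close to 0. On leaving out 1 library the neuropeptide median ran from -0.37 without Ifnar1-/- M1 to 0.27 without Wt M2. Among these genes Chrm3 stood at 310, 399, 276 and 409 CPM in Wt F1, F2, M1 and M2 and at 133, 127, 215 and 350 CPM in Ifnar1-/- F1, F2, M1 and M2, which overlap (log2 fold change -0.76, standard error 0.28, edgeR unadjusted p = 0.0193). Of 20 immediate early genes 4 were tested, Homer1 (0.20), Nr4a1 (-0.02), Egr1 (-0.46) and Per1 (-0.14 on the log2 scale). Of 11 mitochondrially encoded genes 10 lay above 0 on the log2 scale, and the median was 0.35. Without Ifnar1-/- M2 alone the median was -0.26, without Wt F1 0.11 and without Ifnar1-/- F2 0.66, so its direction rested on Ifnar1-/- M2. Their summed level was 4154 ± 1963 CPM for Wt against 5377 ± 4078 CPM for Ifnar1-/- (SD, n = 4 each), so the spread exceeded the difference, and the lowest and the highest sums, 1589 CPM in Ifnar1-/- F2 and 11160 CPM in Ifnar1-/- M2, were of the same genotype. The median of 23 nuclear genes of oxidative phosphorylation was -0.04 and ran from -0.20 without Wt F2 to 0.15 without Ifnar1-/- F2.

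Markers of other cells were uneven between libraries, and those of interneurons reached high levels. The 9 microglia markers all had UMIs and together stood at 98.0 to 185 CPM in Wt and 127 to 329 CPM in Ifnar1-/-, and P2ry12, a microglial purine receptor gene, had a log2 fold change of 0.72 (edgeR unadjusted p = 0.0275). The 12 interneuron markers, all with UMIs, summed to 984 to 4584 CPM in Wt and 1399 to 4928 CPM in Ifnar1-/-, since Sst ranged from 60.1 CPM in Wt F2 to 2676 CPM in Wt M2. Adarb2, also on the list of eccentric projection neurons, is 1 of these markers. It made up 664 of the 984 CPM in Wt M1 and 1102 of the 4928 CPM in Ifnar1-/- M1. The low sums thus say little of interneurons. The 10 glutamatergic markers, all with UMIs, summed to 260.0 to 365 CPM and 195 to 422 CPM, the 9 oligodendrocyte markers to 109.9 to 468 CPM and 122 to 349 CPM, and the 9 astrocyte markers to 78.7 to 146 CPM and 47.8 to 115 CPM. The 6 oligodendrocyte precursor markers summed to 8.91 to 28.2 CPM and 11.2 to 22.1 CPM, and the 8 vascular markers, 6 of them with UMIs, to 41.6 to 65.7 CPM and 35.2 to 76.1 CPM. Their part in the differences between genotypes was not tested. With the 67 nuclei that held markers of other classes left out, 0 of 5702 genes passed in edgeR's test (143 at an unadjusted p under 0.05), and with clusters 5, 7 and 9 left out 0 of 5138 passed (124).

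The composition of the D1 nuclei was compared by the share of nuclei with a UMI of each of 42 subtype genes, none of which the rule read. No gene had an unadjusted p under 0.05 (exact permutation tests over libraries, two-sided, lowest adjusted p = 0.96). The smallest p possible, 0.0286, could not pass the adjustment over 42 genes for a gene on its own, so that this test could not have called 1 gene. Tac1 came nearest, in 80.2% ± 2.52 of Wt and 84.2% ± 1.51 of Ifnar1-/- D1 nuclei (SD, n = 4, exact permutation p = 0.0857), and thinned to 3000 UMIs its shares were 70.2% and 69.3%. Pdyn was in 29.0% ± 4.99 and 25.3% ± 7.16 of nuclei, Ebf1 in 17.1% ± 1.76 and 22.0% ± 6.61, Drd3 in 32.1% ± 11.1 and 28.6% ± 8.69, and the eccentric genes Adarb2 and Tshz1 in 64.7% ± 9.95 and 70.2% ± 5.94 and in 36.7% ± 5.08 and 35.7% ± 8.93 (SD, n = 4). Shares of nuclei with a UMI follow depth, and among oligodendrocyte nuclei Ebf1 was found in 0.383%, Drd3 in 0.128% and Adarb2 in 13.6%. The clusters were uneven over the libraries. Cluster 3, led by Ebf1, held 29 nuclei of Ifnar1-/- F1 and 3 to 14 of each other library. Cluster 6 held 0 nuclei of Ifnar1-/- F1 and 3 to 15 of each other library. The sums per library, such as those of Ebf1, were made over these unlike mixes, and the effect of the mix was not tested.

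Whether the genotype effect differed between D1 and D2 nuclei was tested as an interaction with the library as a block. With 20 to 85 D2 nuclei per library, this test could miss differences. Of 7541 genes 0 (0%) passed an adjusted p of 0.05 in edgeR's test and 0 in DESeq2, and 283 (3.75%) had an unadjusted p under 0.05 in edgeR and 53 in DESeq2. For the genes of smallest p in D1 nuclei the D2 nuclei gave log2 fold changes of 1.22 for Gm43713, 0.84 for Gon4l and 0.63 for Gm26848, and the difference between the kinds was 0.37, 0.23 and 0.08 (edgeR adjusted p = 1 for each). Ap2b1 had -0.63 in D1 and -0.15 in D2 nuclei and Gad1 0.63 and 0.17, differences of -0.46 and 0.46 with an edgeR adjusted p of 1. With nuclei that held markers of other classes left out, the interaction called 2 genes, Rmst and Gpc5, both with a lower effect in D1 nuclei, and without Ifnar1-/- F1 it called 1, Mast4.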

How the data were processed

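Nuclei of snap-frozen cortex were sequenced with 10x 3′ chemistry, in 8 libraries. The deposited values are raw UMI counts per gene and nucleus, which the authors made with Cell Ranger 3.1.0 on an mm10 reference changed to count unspliced RNA. The submitters' processing notes also name Seurat 3.1.5. Whether counting used strand is not given in the sources used here. Nuclei with 200 to 6000 genes, over 1000 UMIs and under 10% mitochondrial UMIs were kept. Glutamatergic nuclei had at least 5 UMIs of Slc17a7, and oligodendrocyte nuclei at least 2 of Mog, at most 1 of Slc17a7 and under 5 of Pde10a. Scrublet calls were used only in an alternative.

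Raw counts were summed per library and kind and tested with edgeR 4.0.16 (R 4.3.3; TMM, quasi-likelihood test, filterByExpr) with Benjamini-Hochberg adjustment at 0.05, without a block. The interaction had the library as a block. Shares were compared by exact permutation over libraries, exact intervals were computed with scipy 1.17.1, and clusters were made with scanpy 1.11.5. DESeq2 1.42.0 was an alternative, and the scripts were tested on simulated data. P-values measure the spread between these libraries, and intervals cover counting error only. Where no UMI of a gene is seen, 3 UMIs are the floor.

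Replicate numbers are shared by the genotypes. Deviations of same-numbered libraries from their group means correlated at 0.242, 0.335, 0.360 and 0.188 over 6663 genes. Libraries of the same sex but another number correlated at 0.197 to 0.456 and those of opposite sex at -0.467 to -0.185. Same-numbered libraries, which are also of the same sex, thus lay within or below the range of the others of that sex. These values show no pairing by number beyond sex. The main test had no block, and the replicate block was an alternative.

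The members and gene lists were chosen with earlier results of these data known. Some genes that these rules name are not reported here. Genes named are the 10 of highest and lowest ratio between D1 and D2 nuclei, the 10 of smallest p between genotypes, and list members chosen by level or by an unadjusted p under 0.05. Members named for other reasons, and the genes that lead clusters, were chosen after their values were seen.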

Additional observations from a re-analysis of the deposited data

Results flagged for a closer look

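In 4 of 100 groups of 4 libraries examined, 1 library stood far from the other 3 by Dixon's criterion, and chance gives about 5 of 100. Isl1 in D1 nuclei was low in Wt M2, at 19.7 CPM against 33.7 to 35.7 CPM in the other Wt libraries. Penk in D1 nuclei was high in Wt M1, at 92.5 CPM against 50.7 to 57.7 CPM. Pde4b was low in Wt M2, at 628 CPM against 799 to 822 CPM. The summed interneuron markers were high in Ifnar1-/- M1, at 4928 CPM against 1399 to 1719 CPM in the other Ifnar1-/- libraries.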

How the results depend on the processing

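Of 6663 genes 0 passed between genotypes in D1 nuclei. DESeq2 called 3, sex as a covariate 3, no filter on low counts 16 (7 higher and 9 lower, of 20283 tested), leaving out doublets 1 and the replicate block 1, which was Gm43713 (log2 fold change 1.65, edgeR adjusted p = 0.0129). The block changed no other call. RLE size factors, library size alone, at least 10 UMIs of Pde10a, nuclei of at least 3000 UMIs, leaving out nuclei or clusters with markers of other classes (both chosen after seeing the data) and leaving out any 1 library gave 0. For the interaction no filter gave 12 calls, leaving out nuclei with markers of other classes 2, and leaving out 1 library 0 to 1. With those nuclei left out, 35 in place of 23 genes were higher in D1 than in D2 nuclei. The difference in the share of D1 nuclei ran from -0.122 to 0.174 points on leaving out 1 library, and turned sign without Wt M2 (-0.00966) and without Ifnar1-/- F2 (-0.122). The difference in the D1 share of D1 plus D2 nuclei ran from -0.223 to 6.41 points, and turned sign without Wt M1 (-0.223) and without Ifnar1-/- M1 (-0.0258). None of the following genes passed a test. The log2 fold change of Pdyn in D1 nuclei (-0.09) ran from -0.1849 to 0.0867 on leaving out 1 library, and turned sign without Wt F1. The log2 fold change of Foxp2 in D1 nuclei (0.06) ran from -0.1004 to 0.1343, and turned sign without Wt M2 (-0.033), without Ifnar1-/- F2 (-0.1004), without nuclei with markers of other classes (-0.0016) and without those clusters (-0.042). The log2 fold change of Adarb2 in D1 nuclei (0.30) became -0.0436 without those clusters. Recomputed under each alternative, list medians moved by more than the spread between libraries in 24 cases and by less in 451. These medians, unlike those given above, kept the genes that the rule read. The causes were not tested. With 45 to 114 D1 nuclei per library, genes of low counts such as Ifnar1 could not be tested.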
